A study of Homo sapiens with 8 samples.

Results

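The 38 genes described here encode proteins of synaptic vesicles, of the presynaptic release site and of dense-core secretory granules. They were taken as a list of names by what their proteins are known for, and with earlier results of these data known. Each was measured by summing its transcripts. They are 38 of the 58592 genes with a transcript in the annotation used, GENCODE release 29 (GRCh38), and 37 of them had a count in at least 1 of the 8 libraries.

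RNA was sequenced from HEK293T/17, a human embryonic kidney line that is easy to transfect and is not of neuronal origin by its label. The control group was 4 libraries of normal cells, and the other group was 4 libraries of cells transfected with a plasmid carrying the tagged open reading frame of human KCNQ3, a subunit of the potassium channels behind the neuronal M-current, by means of FuGENE HD. Cells were harvested 48 hours after transfection, and the same transfection text stands on all 8 samples, and the sources used here do not say whether control cells received reagent or empty vector. The libraries of a group are described as biological replicates without mention of separate cultures, so p-values reflect the spread among these 4 libraries a group, and that spread may be technical.

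In neurons and endocrine cells, secretory vesicles are held near the plasma membrane, made ready for fusion and released when calcium enters. Fusion is driven by SNARE proteins, a vesicle one (a VAMP) zipping together with a syntaxin and a SNAP of the target membrane. Synaptotagmins sense calcium, RIM, Munc13, bassoon and piccolo organise the release site, and granins fill dense-core granules. Much of the SNARE machinery has close relatives in every cell, whereas synapsins, SNAP25 and granins are textbook markers of neurons and neuroendocrine cells.

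Total estimated counts ran from 24020097 to 30734915 per library, and 19280 genes had enough counts to be tested. KCNQ3 had 4, 5, 0 and 2 counts in the controls and 15283, 15874, 19709 and 18603 in the overexpression libraries, which checks the labels (two-sided exact permutation p = 0.0286, the smallest the 70 assignments allow). Of 8 markers of the kidney lineage and of the line, 7 were expressed in control cells, with PAX8 listed at 0 there. Of 11 neuron markers, ELAVL4 and DCX were at 0 in all 8 libraries, yet the neurofilament genes NEFM and NEFL stood at 77.5 ± 4.6 and 28.2 ± 3.3 TPM (SD, n = 4) in controls. The neuron markers summed to 256 to 270 CPM (counts scaled to the size of the library) in controls and 232 to 271 in overexpression libraries. One of them, the tubulin gene TUBB3, differed between libraries of the same group, with 465, 0, 344 and 388 counts in controls and 5, 4, 2 and 378 with overexpression. The neuroendocrine markers summed to 16.3 to 18.8 and 16.0 to 17.5 CPM, and TH was at 0 in all 8. Glial and fibroblast markers summed to at most 1.63 and 21.0 CPM in any library, and blood markers to at most 0.0418. None of the 21 tested genes of these 6 lists passed the test described below. An unadjusted p under 0.05 was found for 5 of the 21, 4 of the kidney list and 1 of the neuron list, against 19.4% of all genes. Of 8 genes of neuronal splicing and repression, CELF3, an RNA-binding protein gene, fell (log2 −1.86, SE 0.15, Benjamini-Hochberg adjusted p = 6.21e-04 by the edgeR quasi-likelihood test). Their part in the results was not tested.

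Control HEK293T cells expressed 21 of the 38 genes at a mean of at least 1 TPM, a level scaled by transcript length so that genes can be compared. Among all protein-coding genes, 12509 of 19906 (62.8%) reached that level. Another 11 genes were present in trace, from 0.1 to below 1 TPM. SV2C, SYT4, CPLX2 and PCSK1 were above 0 but below 0.1 TPM, and SV2B and CADPS had no count in any control library. CADPS had none in the overexpression libraries either, and SV2B had 2 counts in 1 of them, under the floor of 3 counts over a group, so no ratio is given.

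**Figure D1:**
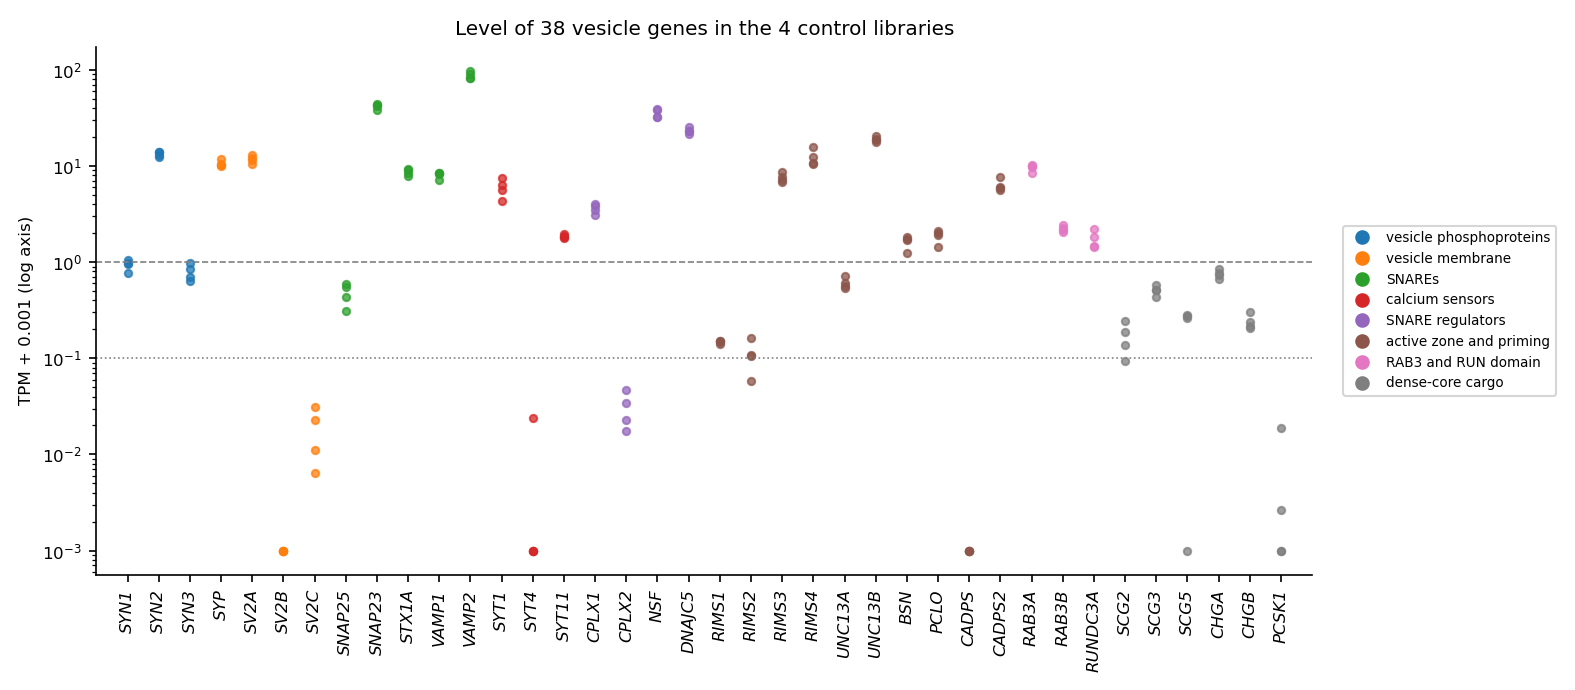
Level of each of the 38 genes in the 4 control libraries, as TPM plus 0.001 on a log axis, 1 point per library and 1 colour per role. The dashed line marks 1 TPM and the dotted line 0.1 TPM. VAMP2 and SNAP23 sit highest, at means of 88.0 and 41.8 TPM, and the dense-core cargo genes all sit below 1 TPM.

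The most abundant members belonged to the fusion machinery shared by many cells. VAMP2, the vesicle SNARE synaptobrevin 2, stood at 97.4, 82.7, 89.9 and 81.9 TPM in control replicates 1 to 4. SNAP23, the relative of SNAP25 found in most tissues, stood at 42.6, 42.6, 38.4 and 43.8 TPM, so its 4 values lay below all those of VAMP2. NSF, the ATPase that takes spent SNARE complexes apart, had 38.3, 38.9, 32.1 and 32.2 TPM, and DNAJC5, a vesicle co-chaperone known as cysteine string protein, had 25.3, 23.3, 23.0 and 21.3. UNC13B, which encodes the priming factor Munc13-2, followed at 19.1 ± 1.1 TPM (SD, n = 4), against 0.607 ± 0.076 TPM for its neuronal relative UNC13A.

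Within families, one member was often expressed and another below 1 TPM. The RAB3 and VAMP pairs were not of this kind. RAB3A and RAB3B were at 9.63 ± 0.83 and 2.22 ± 0.16 TPM, and VAMP1 and VAMP2 at 8.03 ± 0.62 and 88.0 ± 7.2 TPM (SD, n = 4). SV2A, a glycoprotein of the vesicle membrane, was at 11.8 ± 1.0 TPM (SD, n = 4), while SV2C was at 0.0170 ± 0.011 and SV2B at 0. SNAP23 exceeded SNAP25 (0.470 ± 0.13 TPM) in every library. RIMS4 and RIMS3, the short RIM proteins, were at 12.4 ± 2.4 and 7.56 ± 0.80 TPM, whereas RIMS1 and RIMS2, which encode the long scaffolds of the active zone, were at 0.146 ± 0.0056 and 0.108 ± 0.043 TPM. Of the RIMS2 level, 63.7% rests on RIMS2-206, a processed transcript of 552 bases with 1 count in each library. The protein-coding RIMS2 transcripts summed to 0.0386 ± 0.026 TPM. CADPS2, a priming factor for dense-core granules, was at 6.32 ± 0.91 TPM and its relative CADPS at 0. Among synapsins, SYN2 reached 13.4 ± 0.77 TPM against 0.941 ± 0.12 for SYN1 and 0.790 ± 0.15 for SYN3. The SYN2 level rests largely on SYN2-201, a processed transcript of 520 bases with 9.07 ± 0.84 TPM, and the protein-coding SYN2 transcripts summed to 3.96 ± 0.40 TPM.

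The 6 dense-core cargo genes were all below 1 TPM in control cells. CHGA, which encodes chromogranin A, led them with 0.758 ± 0.075 TPM (SD, n = 4), followed by SCG3, a granin that sorts cargo into granules, with 0.512 ± 0.059. CHGB, SCG5 and SCG2 lay between 0.164 and 0.240 TPM on average, and PCSK1, a prohormone convertase, had 1, 0, 2 and 0 counts. The order among CHGB, SCG5 and SCG2 is not resolved, since their control libraries overlap.

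With KCNQ3 overexpression, 4 of the 28 members that could be tested fell and none rose. These were SYN1, SNAP25, RIMS3 and RUNDC3A, of which SNAP25 was tested only because of its control counts. Over all 19280 genes, 0.301% were called by the same rule, a Benjamini-Hochberg adjusted p under 0.05 in the edgeR quasi-likelihood test, and 0.192% were called lower. The other 10 members had too few counts to be tested. Fold changes are given as log2 of overexpression over control, with its standard error (SE), and CPM values use library sizes scaled by TMM factors. In bulk RNA, fewer cells carrying a transcript and less of it per cell cannot be told apart.

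At an unadjusted p under 0.05, 10 members were lower and 1 was higher, that is 39.3% of those tested against 19.4% of all genes (9.46% lower and 9.92% higher). The value was below 0 for 20 of the 28, against 47.4% of all genes, and the median was −0.08 against 0.01 for all genes. The 2 groups of libraries did not overlap in 7 of the 28 members, or 25%, against 11.6% of all genes. Of the 28, 25 reached the minimum of the filter on low counts in all 8 libraries. SNAP25, RIMS1 and SCG3 reached it in all controls but not in all overexpression libraries, and their values were all below 0. SNAP25 reached it in no overexpression library and counts in each of these shares. The shares therefore describe the tested members and not the list of 38. The list was chosen with earlier results of these data known, so neither these shares nor the 4 calls among the 28 are a test of it.

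**Figure D2:**
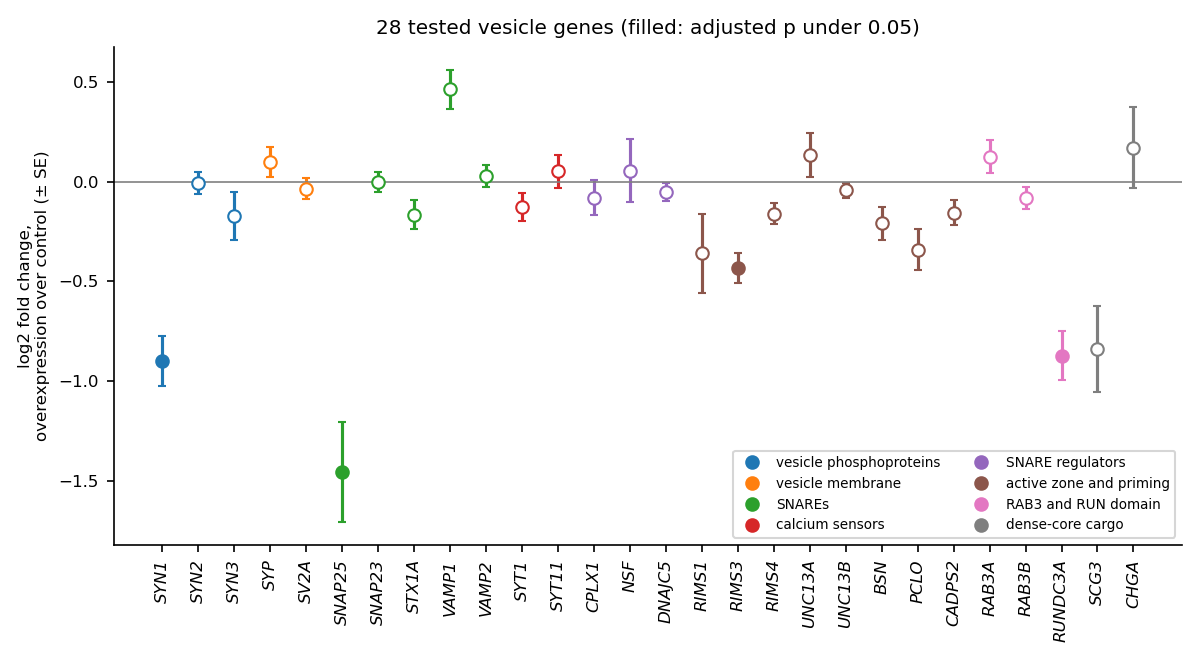
Fold change of each of the 28 tested genes, as log2 of overexpression over control with bars of ± 1 SE, coloured by role. Filled points passed the adjusted p threshold. SNAP25 sits lowest at −1.46, SYN1, RUNDC3A and SCG3 lie between −0.90 and −0.84, and VAMP1 is highest at 0.46.

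SYN1 (ENSG00000008056, chromosome X, 47571898 to 47619943, minus strand) encodes synapsin I, a phosphoprotein that tethers vesicles to each other and to actin. Control replicates 1 to 4 held 62, 51, 46 and 41 counts of it, and overexpression replicates 1 to 4 held 26, 23, 25 and 28. The lowest control library lay above the highest overexpression library. The level went from 1.87 ± 0.17 to 1.01 ± 0.11 CPM (SD, n = 4 each), a log2 change of −0.90 (SE 0.13, Benjamini-Hochberg adjusted p = 0.0224 by the edgeR quasi-likelihood test). The summed counts of the groups, each divided by the summed library sizes, stood in a ratio of 0.533 (95% interval for counting error 0.416 to 0.680). All counts of the gene were assigned to 1 transcript, SYN1-201, which is protein-coding. ENSG00000283743, on the same strand with 0 to 11 counts per library, shares 297 of the 3822 exonic bases of SYN1. Strand could not separate reads of these 2 genes there. ARAF lies on the opposite strand with 1492 to 1944 counts per library and shares 23 exonic bases of SYN1. The sources used here do not say whether counting used strand.

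The promoter of SYN1 is shown because it carries a full RE1 element, the sequence that the repressor REST binds in many neuronal genes, and a cyclic AMP response element. The capitals in the stretch below (RefSeq, GRCh38.p14, chrX:47619944-47620107, minus strand, 250 to 87 bases before the RefSeq start) mark the RE1 match and TGACGTCA, the cyclic AMP element. The RE1 letters searched were CAGCACC, 2 free bases, GGACAG, 3 free bases and C.
SYN1: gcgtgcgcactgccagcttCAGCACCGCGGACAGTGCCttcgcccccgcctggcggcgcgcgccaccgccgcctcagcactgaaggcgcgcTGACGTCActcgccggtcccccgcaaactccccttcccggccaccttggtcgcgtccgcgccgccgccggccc
The stretch ends where the GENCODE model of SYN1-201 begins, 86 bases before the RefSeq start. The search covered the 250 bases before each start, on both strands, with exact matches only. The RE1 letters stood in 15 of 35116 RefSeq promoter windows (0.0427%), and among the 29 members with a window only in that of SYN1. SNAP25 and RUNDC3A, which also fell, had no window and were not searched. REST was at 48.7 ± 1.9 CPM in controls and 45.1 ± 3.2 with overexpression (SD, n = 4 each). Its log2 value of −0.11 (SE 0.06) did not pass (Benjamini-Hochberg adjusted p = 0.302 by the edgeR quasi-likelihood test). A match is a description of letters and not of binding, and a part of REST in the fall of SYN1 was not tested.

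The cyclic AMP letters stood in 578 windows (1.65%) and in those of 3 members, SYN1, CHGA and PCSK1. These are shown together because the same letters stand before the RefSeq start of each. In controls SYN1 and CHGA were at 0.941 and 0.758 TPM and PCSK1 at 0.0048 TPM. The letters of CHGA and PCSK1 lie inside the GENCODE spans of these genes, which begin at 92923080 (plus strand) and 96434143 (minus strand). The capitals mark TGACGTCA in 28 bases from chrX:47619999-47620026 (minus strand), chr14:92923086-92923113 (plus strand) and chr5:96433308-96433335 (minus strand).
SYN1: gaaggcgcgcTGACGTCActcgccggtc
CHGA: gcggcaccgcTGACGTCAtttccggggt
PCSK1: caggtagatcTGACGTCAagagatggct
SYN1 fell, as given above. CHGA had 24, 27, 22 and 26 counts in controls and 34, 27, 18 and 28 with overexpression, with a log2 value of 0.17 (SE 0.20, Benjamini-Hochberg adjusted p = 0.698 by the edgeR quasi-likelihood test). PCSK1 had 3 counts in each group and was not tested.

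The other synapsins gave values near 0. SYN2 had 386, 316, 289 and 297 counts in controls and 313, 292, 337 and 284 with overexpression, with a log2 value of −0.01 (SE 0.06). SYN3 had 112, 89, 84 and 74 against 75, 74, 95 and 61 counts, with −0.17 (SE 0.12). Both groups overlapped for both genes. The difference between SYN1 and its relatives was not tested.

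The vesicle membrane proteins did not pass the test. SYP, which encodes synaptophysin, a major protein of the vesicle membrane, had 448, 468, 369 and 403 counts in controls and 465, 395, 424 and 448 with overexpression (log2 0.10, SE 0.08). SV2A had 1023, 799, 743 and 740 against 813, 690, 803 and 771 counts (log2 −0.03, SE 0.05). In CPM the groups of both genes overlapped. SV2C had 13 counts over the controls and 18 over the overexpression libraries, a ratio of 1.45 whose 95% interval (0.67 to 3.21, counting error only) spans 1.

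SNAP25 (ENSG00000132639, chromosome 20, 10218830 to 10307418, plus strand) encodes the SNARE of the neuronal plasma membrane that botulinum toxin A cuts. Control replicates 1 to 4 held 19, 22, 14 and 12 counts of it, and overexpression replicates 1 to 4 held 5, 6, 6 and 6. Every control library held 12 counts or more, and no overexpression library held more than 6. The level went from 0.628 ± 0.15 to 0.227 ± 0.029 CPM (SD, n = 4 each), a log2 change of −1.46 (SE 0.25, Benjamini-Hochberg adjusted p = 0.0442 by the edgeR quasi-likelihood test). SNAP25 reached the minimum of the filter on low counts in all 4 controls and in no overexpression library, so it was tested only because of its control counts. With no such filter its adjusted p was 0.0485 by edgeR with Benjamini-Hochberg adjustment. The ratio of summed counts was 0.359 (95% interval 0.213 to 0.584, counting error only), the lowest among the tested members. Protein-coding transcripts took 49.3% of its counts in controls and 26.1% with overexpression, the rest being assigned to the processed transcript SNAP25-205. That division changed from library to library, with SNAP25-201 taking 18, 0, 14 and 0 counts in controls and SNAP25-205 taking 0, 22, 0 and 12.

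SNAP23, which does the same task outside neurons, had 1202, 1219, 996 and 1089 counts in controls and 1124, 1022, 1137 and 1034 with overexpression. Its log2 value was 0.00 within rounding (SE 0.05), and by TPM the gene was far more abundant than SNAP25 in both groups (39.6 ± 3.8 against 0.154 ± 0.025 TPM with overexpression). VAMP2 had 3550, 2723, 2659 and 2691 counts in controls and 3245, 2669, 2825 and 2593 with overexpression, with a log2 value of 0.03 (SE 0.05). Both genes had overlapping groups. Over the other settings the log2 value ran from −0.08 to 0.04 for SNAP23 and from −0.02 to 0.05 for VAMP2, so its sign changed in both.

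VAMP1, the synaptobrevin of motor neurons and spinal cord, was the one member with a higher value at an unadjusted p under 0.05. It had 336, 283, 246 and 315 counts in controls and 372, 352, 383 and 445 with overexpression. In CPM, all 4 overexpression libraries (14.0, 14.6, 14.3 and 18.5 CPM) lay above all 4 controls (10.9, 10.7, 10.3 and 12.5 CPM). The log2 value was 0.46 (SE 0.10) and did not pass (Benjamini-Hochberg adjusted p = 0.0643 by the edgeR quasi-likelihood test). DESeq2 called it (adjusted p = 0.00132), as it did 4 of the 21 members to which it gave an adjusted p and 1352 of 13655 genes (9.9%). In all it passed under 4 of 18 other settings, among them the edgeR fits without control replicate 4 (adjusted p = 0.0495) and without overexpression replicate 1 (adjusted p = 0.0466). STX1A, the syntaxin of the presynaptic membrane, had 230, 195, 196 and 197 counts against 174, 166, 200 and 161, with overlapping groups and a log2 value of −0.16 (SE 0.07, Benjamini-Hochberg adjusted p = 0.253 by the edgeR quasi-likelihood test). BUD23 on the opposite strand shares 662 of the 3693 exonic bases of STX1A and had 1730 to 2286 counts per library.

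**Figure D3:**
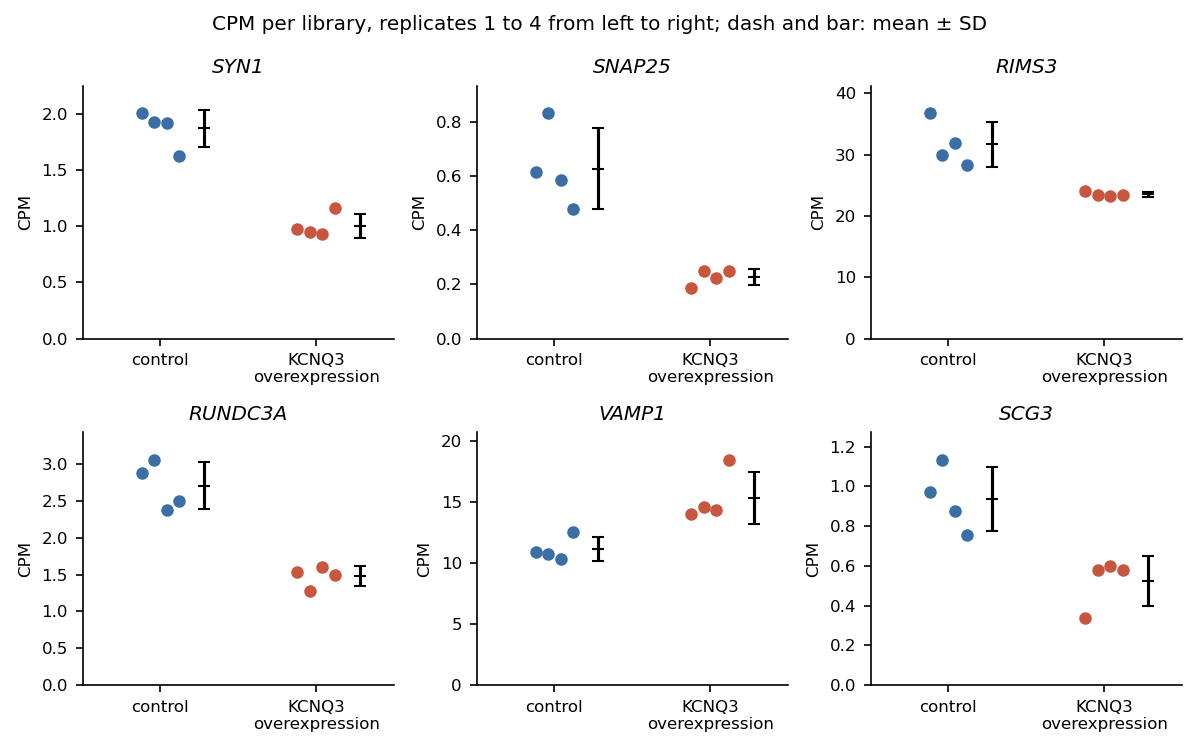
CPM in each library for the 4 genes that fell and for VAMP1 and SCG3, 1 point per library, replicates 1 to 4 from left to right, with the mean and 1 SD beside each group and axes from 0. In all 6 panels the groups do not overlap. In the VAMP1 panel overexpression replicate 4 stands apart at 18.5 CPM.

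Neither the calcium sensors nor the SNARE regulators passed. SYT1, the fast calcium sensor of synaptic release, had 497, 407, 360 and 328 counts in controls and 375, 340, 364 and 312 with overexpression (log2 −0.13, SE 0.07). SYT11, a synaptotagmin that does not bind calcium, gave 0.05 (SE 0.08) and CPLX1, a complexin that clamps SNARE complexes, gave −0.08 (SE 0.09). SYT4 had 2 counts in 1 control library and 0 elsewhere, and CPLX2 had 12 counts over the controls and 8 over the overexpression libraries.

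NSF had 2598, 2388, 1861 and 1325 counts in controls and 2100, 1862, 2146 and 1961 with overexpression. Control replicate 4 was low, at 52.7 CPM against 77.8 to 90.4 in the other controls, and there NSF-201 had 0 counts and NSF-206, the shorter protein-coding transcript, had 1305. By TPM that library stood at 32.2, within the range of the other controls (32.1 to 38.9). The log2 value was 0.06 (SE 0.16) over all libraries and −0.09 without control replicate 4. The pseudogene NSFP1 carries a partial copy of the gene, so reads of the 2 could be divided between them by the authors' estimate. Such a division was not tested. NSFP1 was at 26.8 CPM in control replicate 4, against 26.5 to 30.7 CPM in the other controls. It went from 28.3 ± 2.0 to 24.9 ± 0.88 CPM with overexpression (SD, n = 4 each), without overlap. Its log2 value of −0.18 (SE 0.06) did not pass (Benjamini-Hochberg adjusted p = 0.138 by the edgeR quasi-likelihood test). DNAJC5 had 2413, 1964, 1767 and 1825 counts in controls and 2054, 1731, 1887 and 1677 with overexpression (log2 −0.05, SE 0.04), and its groups overlapped.

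Of the 10 active zone and priming genes, 8 could be tested and 7 of these had values below 0, against 47.4% of all genes. RIMS1, among the 7, reached the minimum of the filter in all controls but not in all overexpression libraries. RIMS3 fell, and RIMS4, BSN, PCLO and CADPS2 were lower at an unadjusted p under 0.05 only. At that level 5 of the 8 were lower, against 9.46% of all genes. The list was chosen with earlier results known, so these counts are not a test of the role. RIMS3 (ENSG00000117016, chromosome 1, 40620679 to 40665657, minus strand) encodes a short RIM isoform that lacks the domains binding RAB3 and Munc13. Control replicates 1 to 4 held 1134, 789, 762 and 713 counts of it, and overexpression replicates 1 to 4 held 641, 564, 622 and 565. The overexpression libraries lay close together, between 23.2 and 24.1 CPM, and below all controls, which ran from 28.4 to 36.8 CPM. The level went from 31.7 ± 3.7 to 23.5 ± 0.38 CPM (SD, n = 4 each), a log2 change of −0.43 (SE 0.07, Benjamini-Hochberg adjusted p = 0.0430 by the edgeR quasi-likelihood test). RIMS3-202, a protein-coding transcript, held 98.6% of the counts in controls and 99.9% with overexpression.

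The 250 bases before the RefSeq start of RIMS3 (GRCh38.p14, chr1:40665683-40665932, minus strand) are shown because RIMS3 had the deepest counts of the 4 genes that fell and its promoter differs from that of SYN1. It held neither the RE1 nor the cyclic AMP letters. The capitals mark the 3 GC boxes, searched as GGGCGG and read here on the opposite strand.
RIMS3: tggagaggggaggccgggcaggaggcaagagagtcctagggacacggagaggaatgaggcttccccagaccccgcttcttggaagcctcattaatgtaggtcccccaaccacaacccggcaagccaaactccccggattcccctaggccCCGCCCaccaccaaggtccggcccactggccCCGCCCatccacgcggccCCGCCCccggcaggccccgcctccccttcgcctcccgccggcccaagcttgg
Its GC content was 69.6%, against 76.8% for the SYN1 stretch and a median of 58.0% over all windows. GC boxes stood in 42.6% of all windows and in those of 20 of the 29 members, so the element is common.

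RIMS4, the other short RIM, had 1228, 1030, 826 and 895 counts in controls and 901, 804, 905 and 782 with overexpression. The groups did not overlap in CPM (34.5 to 39.8 against 32.4 to 33.8 CPM), but the log2 value of −0.16 (SE 0.05) did not pass (Benjamini-Hochberg adjusted p = 0.144 by the edgeR quasi-likelihood test). Of the long RIMs, RIMS1 had 20, 18, 16 and 16 counts against 10, 12, 14 and 16, with −0.36 (SE 0.20), and RIMS2 had 8, 4, 3 and 4 against 2, 1, 7 and 1 counts and was not tested. Neither had groups that stood apart.

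BSN and PCLO encode bassoon and piccolo, the giant scaffolds of the active zone. PCLO had 640, 496, 406 and 402 counts in controls and 360, 323, 458 and 320 with overexpression, and overexpression replicate 3 reached into the controls (17.1 against 16.0 to 20.8 CPM). Its log2 value was −0.34 (SE 0.10, Benjamini-Hochberg adjusted p = 0.127 by the edgeR quasi-likelihood test). BSN had 464, 378, 356 and 327 counts against 377, 270, 330 and 287, with overlapping groups and −0.21 (SE 0.08, Benjamini-Hochberg adjusted p = 0.201 by the edgeR quasi-likelihood test). Under DESeq2, PCLO and RIMS4 passed, with adjusted p values of 0.0246 and 0.0468. That tool called 9.9% of all genes, as given for VAMP1.

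CADPS2 had 491, 415, 348 and 348 counts in controls and 355, 315, 365 and 336 with overexpression. Its log2 value by counts was −0.16 (SE 0.06, Benjamini-Hochberg adjusted p = 0.206 by the edgeR quasi-likelihood test), and 1 overexpression library, at 13.9 CPM, lay above the lowest control, at 13.8. By TPM the groups stood apart, at 6.32 ± 0.91 against 4.38 ± 0.44 (SD, n = 4 each). CADPS2-203, a transcript of 2826 bases, took 220, 0, 168 and 184 counts in controls and 0 in all 4 overexpression libraries. Control replicate 2, with 0 counts of it, stood at 5.90 TPM for the gene, against at most 4.88 TPM in an overexpression library. The part of this transcript in the TPM difference was not tested. The UNC13 genes lay near 0 by counts. UNC13B had 2336, 1942, 1799 and 1834 counts in controls and 1967, 1693, 1965 and 1721 with overexpression (log2 −0.04, SE 0.04), and UNC13A gave 0.13 (SE 0.11).

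RUNDC3A (ENSG00000108309, chromosome 17, 44308413 to 44318671, plus strand) encodes a RUN domain protein of neurons that binds the small GTPase RAP2. Control replicates 1 to 4 held 89, 81, 57 and 63 counts of it, and overexpression replicates 1 to 4 held 41, 31, 43 and 36. The groups did not overlap, with 2.38 to 3.07 CPM in controls and 1.28 to 1.60 CPM with overexpression. The level went from 2.71 ± 0.32 to 1.48 ± 0.14 CPM (SD, n = 4 each), a log2 change of −0.87 (SE 0.12, Benjamini-Hochberg adjusted p = 0.0224 by the edgeR quasi-likelihood test). The fall of the summed counts cannot be read as one of messenger RNA for the protein, whose own change was not tested. Protein-coding transcripts held 9.66% of its counts in controls and none with overexpression, and the rest were assigned mostly to 2 transcripts annotated as retaining introns. RUNDC3A-205 had 53, 43, 37 and 19 counts in controls and 38, 21, 36 and 32 with overexpression. RUNDC3A-203 had 31, 24, 17 and 31 against 3, 10, 7 and 4, so most of the difference lay in that transcript, which did not pass by itself (Benjamini-Hochberg adjusted p = 0.651 by the edgeR quasi-likelihood test on transcripts). The antisense gene RUNDC3A-AS1, which shares 225 exonic bases, had 79, 66, 62 and 59 counts against 51, 53, 58 and 64. Without knowledge of strand, reads of the pair cannot be told apart where they overlap.

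RAB3A and RAB3B, the small GTPases that recruit RIM to vesicles, did not pass. RAB3A had 276, 243, 215 and 204 counts in controls and 232, 220, 293 and 235 with overexpression (log2 0.13, SE 0.08). RAB3B had 558, 466, 401 and 424 against 417, 385, 461 and 403 counts (log2 −0.08, SE 0.06). In both genes the groups overlapped.

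Among the dense-core cargo genes only SCG3 and CHGA had enough counts to be tested, and neither passed. SCG3 had 30, 30, 21 and 19 counts in controls and 9, 14, 16 and 14 with overexpression, with no overlap between groups. Its log2 value was −0.84 (SE 0.21, Benjamini-Hochberg adjusted p = 0.0922 by the edgeR quasi-likelihood test), close in size to that of SYN1 with a wider error. The ratio of summed counts was 0.554 (95% interval 0.389 to 0.780, counting error only). CHGB had 11, 12, 8 and 9 counts in controls and 7, 4, 8 and 6 with overexpression. Its groups did not overlap in CPM, but the ratio of 0.653 had a 95% interval (0.380 to 1.10) that spans 1, so no difference was detectable at this depth. SCG2 had 29 counts over the controls and 22 over the overexpression libraries, and SCG5 had 16 and 22.

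The calls on the 4 genes were close to the threshold. Of the alternatives in which each was tested, SYN1 passed in 7 of 16, SNAP25 in 4 of 15, RIMS3 in 5 of 18 and RUNDC3A in 8 of 16. All of those values were below 0. Leaving out 1 library gave between 0 and 5 called members. None was called without control replicate 1 or 2 or without overexpression replicate 2 or 3. RUNDC3A alone was called without control replicate 3 and SYN1 alone without overexpression replicate 4. The 4 genes and VAMP1 were called without control replicate 4, and again without overexpression replicate 1. Over all genes, the same fits made 8 to 378 calls, with 194 without control replicate 4 and 378 without overexpression replicate 1. None was called on the deposited TPM with limma. None of 26 members was called when only protein-coding transcripts were summed, a setting chosen after the data were seen in which 0.0451% of 13309 genes were called. SNAP25 and RUNDC3A were not tested there, and SYN1 had a log2 value of −0.88. SYN1, SNAP25 and RUNDC3A received no adjusted p from DESeq2, which leaves out genes of low counts.

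**Figure D4:**
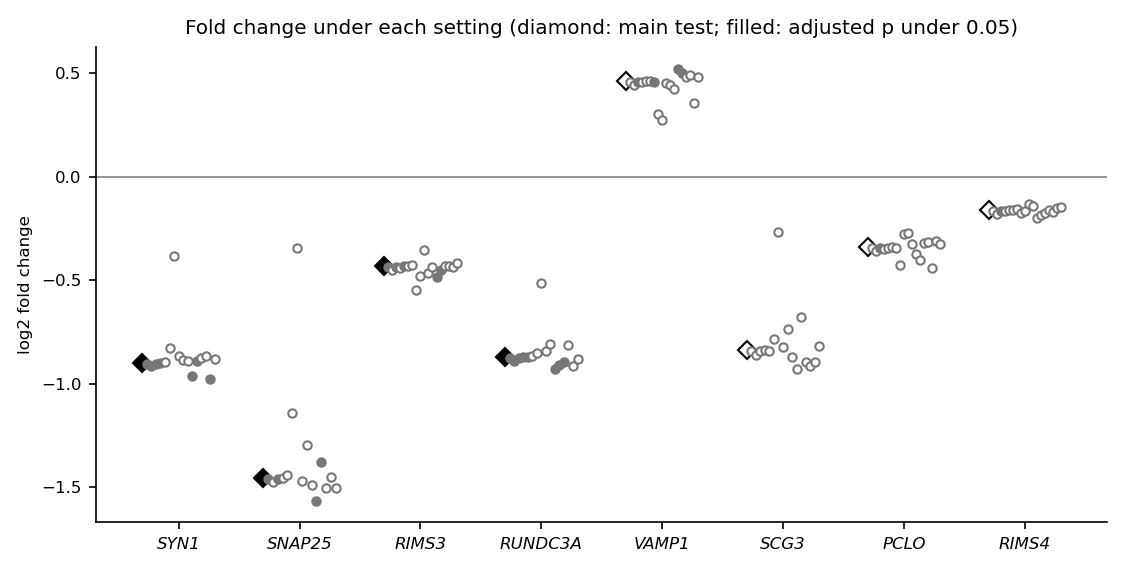
Log2 fold change of 8 members by the edgeR test (diamond) and under each alternative in which the gene was tested (circles), filled where the adjusted p was under 0.05. Open and filled circles mix for SYN1, SNAP25, RIMS3 and RUNDC3A, while the sign stays the same in each of the 8 genes shown. The highest points of SYN1, SNAP25, RUNDC3A and SCG3 come from limma on log2(TPM + 1), a scale on which low levels give small differences.

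At the level of transcripts, 128 transcripts of members had counts, 46 were tested and none was called, against 0.0127% of all 47129 transcripts tested. An unadjusted p under 0.05 was found for 5 of the 46, against 5.58% of all. The assignment of counts to transcripts was stable for some members and not for others. Of 26 members with at least 10 counts in each library, 19 had the same leading transcript in all 8, while SYN2, SYT1, NSF, UNC13B, PCLO, CADPS2 and RUNDC3A had more than one. In UNC13B nearly all counts went to UNC13B-206 in control replicates 2 and 3 and overexpression replicate 1, and to UNC13B-201 in the other 5 libraries. Gene sums were therefore used for the comparisons above. They need not be free of such switches, since NSF in control replicate 4 was low by summed counts and not by TPM.

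**Figure D5:**
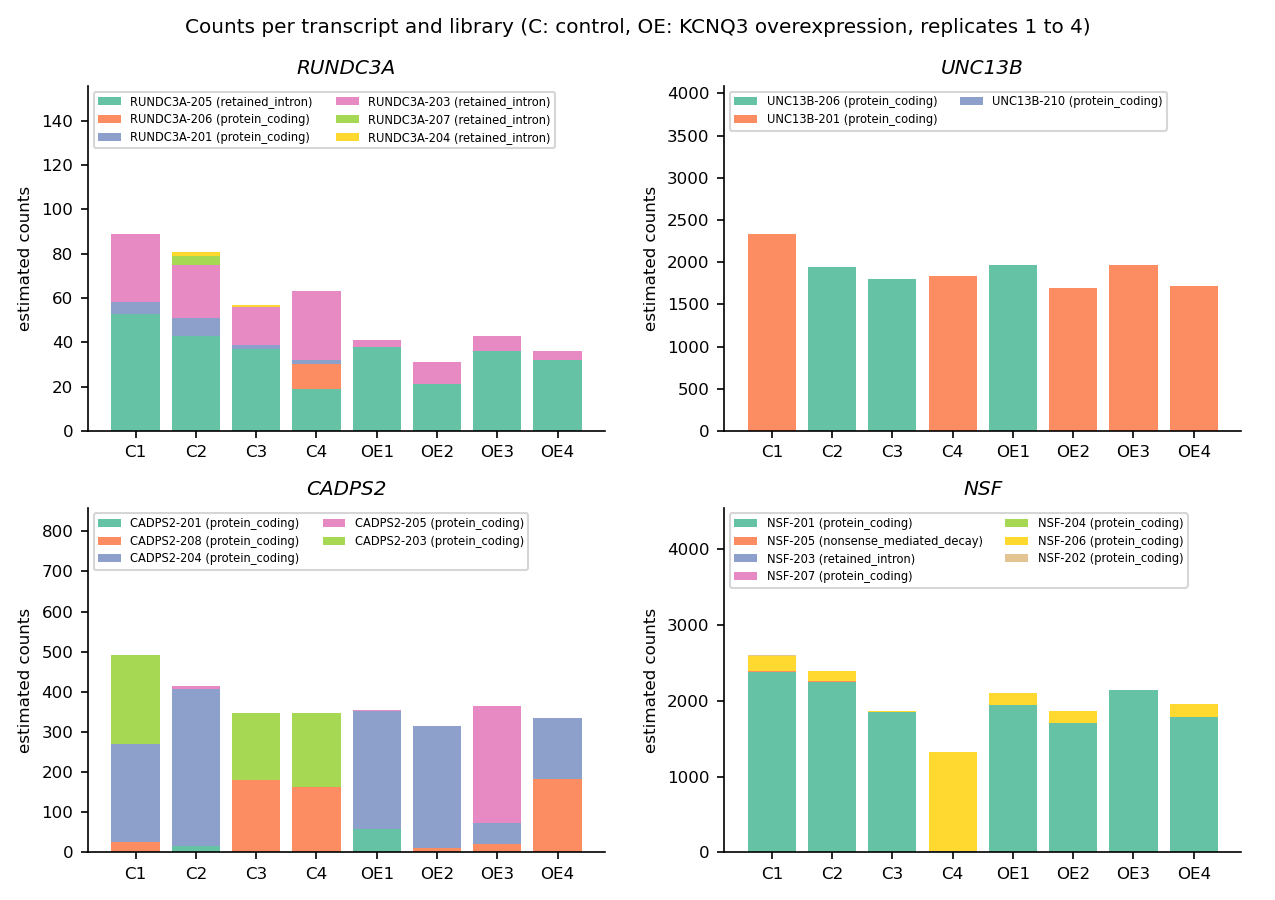
Estimated counts per transcript, stacked by library, for RUNDC3A, UNC13B, CADPS2 and NSF. UNC13B switches between 2 transcripts from library to library within each group, NSF does so in control replicate 4, and CADPS2-203 has counts in 3 control libraries and in no overexpression library.

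A wider list of 133 presynaptic and secretory genes, set by role, gave no call. Of these, 94 were expressed in control cells and 111 were tested. The count by the edgeR test was 0, with 34 at an unadjusted p under 0.05 (13 higher and 21 lower), or 30.6% against 19.4% of all genes. DESeq2 called 12 of 92 (3 higher and 9 lower), against 9.9% of all genes, and limma on TPM called 0. The median log2 value was −0.05. In controls its most abundant members were general trafficking genes, led by CLTA (clathrin light chain A) at 209 ± 7.6 TPM (SD, n = 4), STX8 (an endosomal syntaxin) at 87.5 ± 4.7 and SNAPIN (a SNAP25-binding protein) at 80.6 ± 5.1. The vesicular transporter genes SLC17A6, SLC18A1 and SLC18A2, which load glutamate and monoamines, were listed at 0 in all 8 libraries.

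The smallest p in the wider list belonged to the RAB3 cycle. RAB3GAP1, a subunit of the complex that switches RAB3 off, had 3900, 3181, 2701 and 2670 counts in controls and 2616, 2150, 2510 and 2168 with overexpression. Its groups did not overlap (116 ± 8.8 against 92.7 ± 4.2 CPM, SD, n = 4 each), and its Benjamini-Hochberg adjusted p by the edgeR quasi-likelihood test was 0.0505 (log2 −0.33, SE 0.06). RAB3IL1, an exchange factor for RAB3A, gave −0.39 (SE 0.08, Benjamini-Hochberg adjusted p = 0.0608 by the edgeR quasi-likelihood test). STXBP5L, a tomosyn that holds syntaxin back from fusion, gave −0.47 (SE 0.10), and SYTL2, a RAB27 effector, gave −0.49 (SE 0.11). Higher values without overlap were seen, among others, for PCSK1N, an inhibitor of PCSK1 (0.23, SE 0.05), and for GAL, the precursor of the neuropeptide galanin (0.30, SE 0.07). None of these passed the edgeR test over all libraries. DESeq2 called 5 of the 6, all but SYTL2, which received no adjusted p. RAB3GAP1 passed in 5 of 18 alternatives, among them those without control replicate 4 and without overexpression replicate 1. RAB3IL1 and GAL also passed without overexpression replicate 1, and STXBP5L without control replicate 4.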

How the data were processed

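The authors' tools, per the submitters' processing notes, included StringTie 2.1.0, HISAT2 2.1.0, SAMtools 1.9, cutadapt 2.8 and FastQC 0.11.5, and the build was GRCh38.p13. The sources used here do not give strand use or annotation release. The authors' deposited tables hold estimated counts, all whole numbers, and TPM, both per transcript. Of 227751 identifiers, 205804 matched GENCODE release 29 and held 98.7% to 98.9% of the counts, and these were summed per gene. No library was a copy of another (chi-square per degree of freedom 9.72 to 18.6 between replicates).

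The main test was edgeR 4.0.16 (R 4.3.3), its quasi-likelihood fit with robust estimation and TMM scaling on genes kept by filterByExpr (minimum count 10, total 15), adjusted over all 19280 genes, threshold 0.05, 4 libraries against 4 without covariates. limma 3.58.1 on log2(TPM + 0.1 or 1) and DESeq2 1.42.0 were alternatives. SE are those implied by the test. Intervals of count ratios are exact 95% intervals for counting error.

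The members, lists and tests were chosen with earlier results of these data known. Genes described with all libraries are those called, those with unadjusted p under 0.05 and the 12 most abundant in controls. From the wider list they are those of smallest p and highest level by role, not all printed. A few further members and marker genes were named after their values were seen. Promoters are RefSeq windows for 29 of the 38 members (GRCh38.p14). CADPS2, CHGB, CPLX1, RIMS2, RIMS4, RUNDC3A, SCG2, SNAP25 and SYN3 had no entry.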

Additional observations from a re-analysis of the deposited data

Results flagged for a closer look

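In 3 of the 56 groups of 4 libraries examined, 1 library stood apart from the other 3 by Dixon's criterion, which chance alone meets in about 1 group in 20. VAMP1 was at 18.5 CPM in overexpression replicate 4, against 14.0 to 14.6 CPM in the other 3 overexpression libraries, and without it the log2 value was 0.36 (adjusted p = 0.170 by edgeR with Benjamini-Hochberg adjustment). PCLO was at 17.1 CPM in overexpression replicate 3, against 13.3 to 13.5 CPM in the others, and without it the log2 value was −0.44 (adjusted p = 0.103 by edgeR with Benjamini-Hochberg adjustment). SCG3 was at 0.338 CPM in overexpression replicate 1, which is 9 counts, against 0.579 to 0.597 CPM in the others.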

How the results depend on the processing

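The number of members called, 4, was 2 with no scaling factor, 2 without robust estimation and 0 with limma on either TPM scale, and ran from 0 to 5 when 1 library was left out. It was 2 with a mean of at least 50 counts, where SYN1 and SNAP25 were not tested, and 0 on protein-coding transcripts only, where SNAP25 and RUNDC3A were not tested. DESeq2 also called 4, of which 1 (RIMS3) was shared. Over all genes, 58 calls became 35 with no scaling factor, 1352 with DESeq2, 30 without robust estimation, 7 with limma on either TPM scale and 6 on protein-coding transcripts only, and ran from 8 to 378 with 1 library left out. The lowest count was without overexpression replicate 2 and the highest without overexpression replicate 1. In the wider list, 0 calls became 12 with DESeq2 and 1 with a mean of at least 50 counts, and ran from 0 to 3 with 1 library left out. Over all transcripts, 6 calls ran from 0 to 9 with 1 library left out. With the replicate number as a block, 1 member (VAMP1), 1 gene of the wider list (RAB3GAP1), 86 genes and 0 transcripts were called. Same-numbered libraries did not deviate together (correlations from −0.046 to 0.014, against −0.075 to 0.080 for other pairs). Such correlations cannot show whether they shared a day or batch, which the sources used here do not say. The count of expressed members, 21, was 26 at 0.5 TPM, 17 at 2 TPM, 24 at 1 CPM and 20 on protein-coding transcripts only. Of 490 fold changes of members over 18 alternatives, 424 kept sign and side of the threshold, 41 lost the call, 6 gained one and 19 changed sign, all in 5 uncalled genes. These were SYN2 (0.0357 and 0.0334 by TPM, −0.0310 to 0.0076 with 1 library left out), SNAP23 (1e-04 with the block, 0.0417 on protein-coding transcripts, −0.0459 to 0.0364 with 1 left out), VAMP2 (−0.0173 and −0.0171 by TPM, −0.0230 to 0.0522 with 1 left out), SYT11 (−5e-04 and −1e-04 by TPM, −0.0051 to 0.0883 with 1 left out) and NSF (−0.115 and −0.113 by TPM, −0.0893 to 0.143 with 1 left out). The cause was not tested. Depth limits the 10 untested members and SNAP25, SCG3 and RIMS1, which had at most 30 counts in a library.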
